A study of Mus musculus with 3 samples.

Results

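The lipid-associated macrophage genes described here are 10 genes: Trem2, Gpnmb, Spp1, Cd9, Lgals3, Cd63, Tyrobp, Lyz2, Cd68 and Lpcat2. They were found by their gene symbol among the non-control spots of the arrays, where each had 1 spot, and they make up 10 of the 31896 gene symbols on the arrays. RNA of liver cells prepared as hepatocytes was measured in 3 groups of male C57BL/6 mice that were 22 weeks old, with 1 array per group. The anti-VLA-4 group had a high-fat diet for 16 weeks from 6 weeks of age, and after 10 weeks of that diet received intraperitoneal injections of a blocking antibody to VLA-4, the integrin alpha4 beta1, 2 times a week for 6 weeks. The HFD-IgG group had the same diet and the same schedule of injections with a control IgG. The SD group had a standard diet for 16 weeks, and no injection is mentioned for it, so that diet and IgG injection cannot be told apart in the comparison of HFD-IgG with SD. In all 3 groups the livers were digested with collagenase after an overnight fast. The number of mice behind an array is not given by the labels, and with 1 array per group no difference below has a replicate check or a test.

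Lipid-associated macrophages are macrophages that gather around lipid-laden or dying cells in fatty tissue, fatty liver and atherosclerotic plaques. TREM2, a cell-surface receptor that binds lipids and lipoproteins, is paired with the adaptor TYROBP (also called DAP12), whose tyrosines are phosphorylated and recruit the kinase SYK. Such macrophages are known to express genes of phagocytosis, lysosomes and lipid handling, and mouse Trem2 is needed for much of that programme. Several of the 10 genes are not restricted to macrophages: Cd9, Cd63 and Lgals3 are expressed by many cell types, and Spp1 also by bile duct epithelium.

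The array probes of Spp1 and Tyrobp are shown because each lies on the part of its coding sequence that matters for the interactions described below. The Spp1 probe (mm9 chr5:104868502-104868561, plus strand) carries in capitals, at bases 8 to 28, the codons of the stretch of osteopontin that binds integrins alpha4 and alpha9, VLA-4 among them. The Tyrobp probe (plus strand) is placed by the array's design at mm9 chr7:31200651-31202378, which spans 1728 bases for a 60-base probe and therefore crosses an intron. Its capitals, at bases 39 to 50, mark codons of the cytoplasmic activation motif of TYROBP, from tyrosine to leucine, where SYK docks once the tyrosines are phosphorylated.
Spp1 probe: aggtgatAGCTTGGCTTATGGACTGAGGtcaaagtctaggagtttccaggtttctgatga
Tyrobp probe: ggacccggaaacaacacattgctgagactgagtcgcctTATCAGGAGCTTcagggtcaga

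Promoters of 9 of the 10 genes, as 10 windows of 250 bases before the RefSeq start site on GRCm38.p6, were searched on both strands for 3 short motifs of factors known to act in macrophages. The ETS core searched, GAGGAA, which the macrophage factor PU.1 binds, was found in 4 of the 10 windows, those of Cd63, Cd68, Spp1 and Trem2, and in 23.3% of all 32851 promoter windows. The AP-1 site TGANTCA was found in 2 of the 10 windows, those of Cd68 and Trem2, and in 6.75% of all windows. The E-box CACGTG, bound by the MiT factors that control lysosomal genes, was found in 0 of the 10 windows and in 6.02% of all windows. The Trem2 window (chr17:48346151-48346400, plus strand) and the Cd68 window (chr11:69666171-69666420, minus strand) are printed because they alone among the 10 held both the ETS core and the AP-1 site. Capitals mark the matches, which did not overlap, and a match is a run of letters, not a binding site.
Trem2 promoter: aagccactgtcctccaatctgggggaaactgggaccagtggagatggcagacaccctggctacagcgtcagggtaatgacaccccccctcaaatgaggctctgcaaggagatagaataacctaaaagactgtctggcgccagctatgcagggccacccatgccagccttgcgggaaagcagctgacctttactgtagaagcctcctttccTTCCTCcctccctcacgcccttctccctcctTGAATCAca
Cd68 promoter: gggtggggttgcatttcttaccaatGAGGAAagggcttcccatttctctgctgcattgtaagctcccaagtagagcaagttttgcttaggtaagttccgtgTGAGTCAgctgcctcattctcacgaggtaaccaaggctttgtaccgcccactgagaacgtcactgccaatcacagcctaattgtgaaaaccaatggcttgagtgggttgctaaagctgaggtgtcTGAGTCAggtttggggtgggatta

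Each level below is a relative signal: the background-subtracted fluorescence of a spot divided by the 75th percentile of all non-control spots of its array, which lay between 500.3 and 574 fluorescence units. The scanner software marked 62.4% of non-control spots as well above background for anti-VLA-4, 66.5% for HFD-IgG and 57.3% for SD, and none of the members' spots was saturated. Errors given after a log2 difference are the scanner's own estimates for the 2 spots and do not cover differences between mice or preparations. The HFD-IgG and SD arrays lay on the same slide and the anti-VLA-4 array on another, so that slide and antibody cannot be told apart. Of the 10 members, 6 were well above background on all 3 arrays. Trem2 and Cd68 were not so on the SD array, Gpnmb was so on the anti-VLA-4 array alone, and Lpcat2 was so on no array. Where a spot was not well above background on the dimmer array, its fold is a lower bound, set against the detection floor of that array (its lowest signal well above background) or the spot's own signal, whichever was higher.

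**Figure D1:**
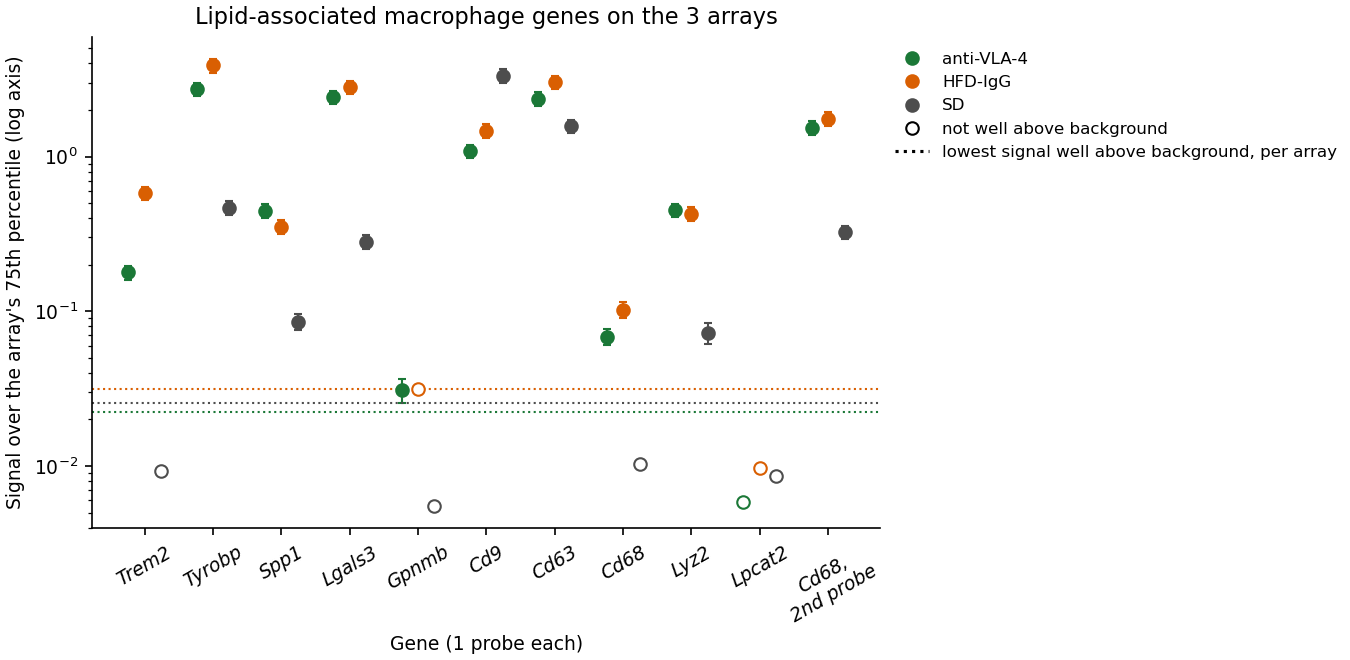
Relative signal of each member on the anti-VLA-4, HFD-IgG and SD arrays, on a log axis, 1 probe per gene, with bars for the scanner's error of 1 spot and open symbols, drawn without bars, for spots not well above background. Dotted lines give the lowest signal well above background on each array. Trem2, Tyrobp, Spp1, Lgals3, Lyz2 and Cd68 lie higher on both high-fat arrays than on the SD array, whereas Cd9 lies highest on the SD array at 3.33.

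Trem2, the receptor of the programme, had a relative signal of 0.178 in anti-VLA-4 and 0.580 in HFD-IgG. On the SD array its spot, at 0.00925, was not well above background. The HFD-IgG array was thus highest and the anti-VLA-4 array lay between the other two. Trem2 was at least 22.6-fold higher in HFD-IgG than in SD, a log2 difference of at least 4.50. It was 3.25-fold lower in anti-VLA-4 than in HFD-IgG, a log2 difference of -1.70 ± 0.21, and 8.68% of the genes compared were as low or lower. With another background correction (normexp on the raw spot means) that log2 difference was -0.69, short of 2-fold, where the median of all genes was -0.14. The bound of HFD-IgG over SD was then 2.62, where the median of all genes was 0.46. Trem2 was at least 6.93-fold higher in anti-VLA-4 than in SD.

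Tyrobp, the signalling adaptor of TREM2, had relative signals of 2.74 in anti-VLA-4, 3.88 in HFD-IgG and 0.468 in SD. It was 8.30-fold higher in HFD-IgG than in SD (log2 3.05 ± 0.21) and 5.86-fold higher in anti-VLA-4 than in SD. Between anti-VLA-4 and HFD-IgG the log2 difference was -0.50 ± 0.20, or 1.42-fold lower, so that receptor and adaptor lay in the same order on the 3 arrays but by different amounts.

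Around this pair, the list of TREM2 and DAP12 signalling genes, which contains Trem2 and Tyrobp, had 12 of 19 genes higher by 2-fold or more, and 0 lower, in HFD-IgG than in SD, with a median log2 difference of 1.90 against 0.04 over all genes, in which bounds are entered at their limit. Over all genes 20.4% were higher, and 4 of the 12 (Trem2, Card9, Pik3cd and Vav3) are bounds that entered through the HFD-IgG array alone. Under 4 other scalings and background corrections, 10 to 13 of the list were higher. The 10 came with quantile scaling, where 11.1% of all genes were higher and 1 gene of the list was lower. The 13 came with normexp, where 40.4% of all genes were higher. The kinase Syk was 5.80-fold higher (log2 2.54), the phospholipase Plcg2 3.74-fold (1.90), the exchange factor Vav1 6.52-fold (2.70) and the inhibitory lipid phosphatase Inpp5d, also called SHIP1, 7.23-fold (2.85). Hcst, the sister adaptor DAP10, was 2.87-fold higher. Adam10 and Adam17, the sheddases that cut TREM2 from the cell surface, had log2 differences of 0.20 and 0.06. In anti-VLA-4 against HFD-IgG, 6 of 20 of these genes were lower by 2-fold or more, and 0 higher, with a median log2 difference of -0.40 against -0.06 over all genes. Over all genes 16.5% were lower. Card9 and Vav3, among the 6, are bounds that entered through the HFD-IgG array alone, so lower was the only call open to them. With normexp 1 of the 20 was lower, where 0.667% of all genes were. The lowest was Pik3cd, a catalytic subunit of PI3-kinase, 22.4-fold lower (log2 -4.49), which was also at least 53.4-fold higher in HFD-IgG than in SD. The exchange factor Vav3 was at least 10.9-fold lower. The Tec kinase Btk was at log2 -1.58 there and the adaptor Blnk 2.16-fold lower (-1.11), whereas Syk was at -0.49, Vav1 at -0.58 and Plcg2 at 0.15. Other receptors use DAP12 or the related Fc receptor gamma chain. Of 11 compared, 9 were higher by 2-fold or more, and 0 lower, in HFD-IgG than in SD, among them Fcgr3 at log2 3.85. Fcgr1, Pilrb1 and Pira2, also among the 9, are bounds that entered through the HFD-IgG array alone. In anti-VLA-4 against HFD-IgG, 1 of 12 was higher and 2 were lower, namely Fcgr1 by 2.18-fold and Fcgr3 by 2.01-fold. Over all genes 1.9% were higher and 16.5% lower, and both lower calls were lost with quantile scaling and with normexp. The 1 higher gene, Clec4e, is a bound that entered through the anti-VLA-4 array alone.

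**Figure D2:**
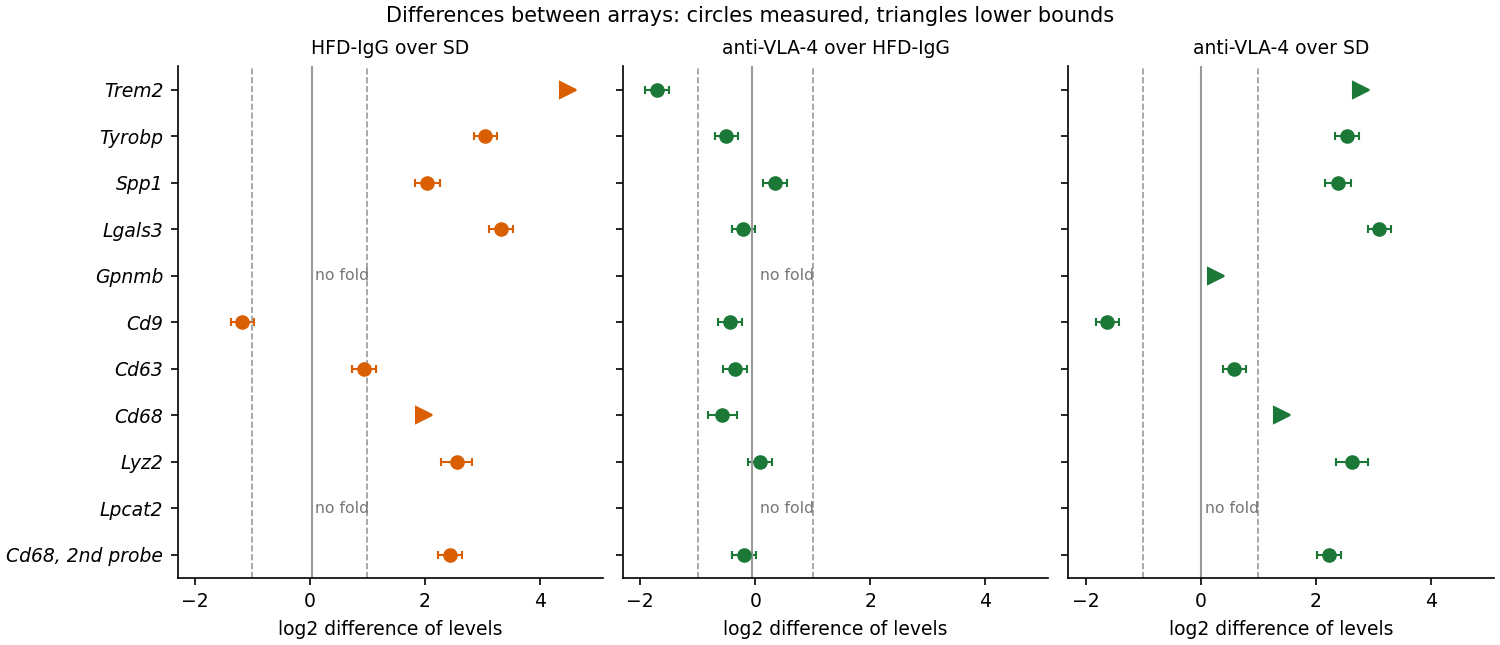
Log2 difference of each member's relative signal for HFD-IgG over SD, anti-VLA-4 over HFD-IgG and anti-VLA-4 over SD, with bars for the scanner's error and triangles for lower bounds. Solid lines mark the median of all genes and dashed lines 2-fold. Trem2 reaches at least 4.50 for HFD-IgG over SD and lies at -1.70 for anti-VLA-4 over HFD-IgG, whereas the other members compared there lie between -0.57 and 0.35.

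Spp1 encodes osteopontin, a secreted phosphoprotein and a ligand of VLA-4 and other integrins. Its relative signal was 0.447 in anti-VLA-4, 0.352 in HFD-IgG and 0.0854 in SD, so that both high-fat preparations lay above the standard-diet one. It was 4.12-fold higher in HFD-IgG than in SD (log2 2.04 ± 0.22) and 5.24-fold higher in anti-VLA-4 than in SD (log2 2.39). The difference of anti-VLA-4 from HFD-IgG was 0.35 ± 0.21, or 1.27-fold higher, and it was -0.02 with the normexp background correction. Bile duct markers, beside which Spp1 has to be read in liver, had summed relative signals of 0.679 in anti-VLA-4, 1.26 in HFD-IgG and 0.839 in SD, with the markers Krt7 and Epcam well above background in HFD-IgG only. Their part in the Spp1 values was not tested.

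Receptors of osteopontin differed in part: 6 of 10 genes were higher by 2-fold or more, and 0 lower, in HFD-IgG than in SD, with a median log2 difference of 1.42, against 20.4% of all genes higher. Of the 6, Itga4, Itga8 and Itgb6 are bounds that entered through HFD-IgG alone. Itga4, the alpha chain of VLA-4 itself, was at least 4.26-fold higher there. Itga9, whose product pairs with integrin beta1 and binds the same stretch of osteopontin, was 8.06-fold higher (log2 3.01), and Cd44 2.64-fold (1.40). Itgb1, the beta chain of VLA-4, was at -0.19 and Itgav at 0.01. In anti-VLA-4 against HFD-IgG, 3 of the 10 genes were lower by 2-fold or more, and 0 higher: Itga9 by 2.06-fold, Itga8 by 2.19-fold and Itgb6 by at least 3.11-fold. Over all genes 16.5% were lower, and Itgb6 is a bound that entered through the HFD-IgG array alone. With normexp 0 of the 10 were lower, where 0.667% of all genes were. Itga4 was at -0.56 ± 0.26 and Cd44 at 0.04 in that comparison.

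Lgals3 encodes galectin-3, a lectin that binds sugar chains on damaged lysosomes and on the cell surface. The relative signal of Lgals3 was 2.43 in anti-VLA-4, 2.80 in HFD-IgG and 0.281 in SD. It was 9.99-fold higher in HFD-IgG than in SD (log2 3.32 ± 0.21), the highest log2 difference among the members measured on both arrays. In anti-VLA-4 it was 8.65-fold higher than in SD, and its difference from HFD-IgG was -0.21 ± 0.20. Beside it, 5 other galectins and the galectin-3 binding protein Lgals3bp were compared between HFD-IgG and SD. Of these 6 genes, 1 was at least 2-fold higher, Lgals1 at 6.63-fold, and 0 were lower. Over all genes 20.4% were higher, and 1 of 6 is near that share. Lgals8 and Lgals4 had log2 differences of -0.59 and -0.66.

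Lyz2, the lysozyme gene of macrophages and neutrophils, had relative signals of 0.451 in anti-VLA-4, 0.426 in HFD-IgG and 0.0726 in SD. It was 5.87-fold higher in HFD-IgG than in SD (log2 2.55 ± 0.27) and 6.21-fold higher in anti-VLA-4 than in SD. Its difference between anti-VLA-4 and HFD-IgG was 0.08, well inside the scanner's error, and -0.11 with normexp. The probe of its near-identical neighbour Lyz1 gave 2.12 in anti-VLA-4, 1.496 in HFD-IgG and 0.385 in SD, and how far the RNA of either gene binds the other's probe was not tested.

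Cd68, a lysosomal membrane glycoprotein used as a general macrophage marker, had relative signals of 0.0686 in anti-VLA-4 and 0.102 in HFD-IgG, and was not well above background in SD, at 0.0102. It was at least 3.97-fold higher in HFD-IgG than in SD and at least 2.67-fold higher in anti-VLA-4 than in SD. With quantile scaling the bound of HFD-IgG over SD was 0.95 on the log2 scale, short of 2-fold. Its log2 difference between anti-VLA-4 and HFD-IgG was -0.57 ± 0.25, and 0.08 with quantile scaling. A brighter probe, listed on the arrays under an Ensembl transcript of Cd68 and therefore outside the rule, was well above background on all 3 arrays, with 1.53 in anti-VLA-4, 1.76 in HFD-IgG and 0.325 in SD. By that probe Cd68 was 5.42-fold higher in HFD-IgG than in SD, and the difference of anti-VLA-4 from HFD-IgG was -0.20 ± 0.20, within the scanner's error.

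The 2 tetraspanins, membrane proteins that organise other proteins in the plasma membrane and in endosomes, lay in different orders on the 3 arrays. Cd63, a marker of late endosomes and lysosomes, had relative signals of 2.37 in anti-VLA-4, 3.03 in HFD-IgG and 1.58 in SD. The difference of HFD-IgG from SD was 0.94 ± 0.20, or 1.92-fold, just short of the 2-fold limit, 1.05 with cyclic loess and 0.37 with normexp, where the median of all genes was 0.46. Cd9, the other tetraspanin of the programme and a gene of many cell types, had 1.09 in anti-VLA-4, 1.47 in HFD-IgG and 3.33 in SD. It was the 1 member that was highest in SD: 2.26-fold lower in HFD-IgG than in SD (log2 -1.18 ± 0.20), where 1.63% of the genes compared were as low or lower, and 3.07-fold lower in anti-VLA-4 than in SD (log2 -1.62). Of 18 other tetraspanin genes, 3 were higher by 2-fold or more, and 0 lower, in HFD-IgG than in SD, with a median log2 difference of 0.33. That is near the 20.4% of all genes. With normexp 7 were higher and 2 lower, where 40.4% of all genes were higher and 3.93% lower. The highest measured were Tspan7 at 3.59 and Tspan13 at 2.86, and the lowest was Tspan31 at -0.61. In anti-VLA-4 against HFD-IgG, Tspan7 lay at -1.33 and Tspan13 at -1.91, the 2 of 18 that were at least 2-fold lower, and with normexp 0 were.

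Gpnmb, a lysosomal and melanosomal glycoprotein that is a widely used marker of the programme, was at the limit of detection. Its relative signal was 0.0310 in anti-VLA-4, where it was just well above background, 0.0315 in HFD-IgG and 0.00552 in SD, where it was not. The only fold that can be given is at least 1.21-fold higher in anti-VLA-4 than in SD. Lpcat2, an enzyme that adds a fatty acid to lysophospholipids and makes platelet-activating factor, was at 0.00586 in anti-VLA-4, 0.00975 in HFD-IgG and 0.00865 in SD. None of these was well above background, so no fold is given. Among 10 other acyltransferase genes compared between HFD-IgG and SD, 2 were at least 2-fold higher and 0 lower, with a median log2 difference of -0.28. That is near the 20.4% of all genes that were higher. Both calls, Agpat4 and Mboat2, are bounds that entered through the HFD-IgG array alone.

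In HFD-IgG against SD, 8 of the 10 members could be compared, of which 6 were at least 2-fold higher (20.4% of all 22000 genes compared were) and 1 was lower (2.41% of all genes were). Trem2 and Cd68 entered that comparison through the HFD-IgG array alone, so a higher value was the only call open to them. The median over the 8 was 2.30. Calls in either direction made up 22.9% of all genes. Among the genes above the array's 75th percentile on at least 1 of these arrays, which include 4 members, Lgals3 and Tyrobp were higher (4.27% of such genes were) and Cd9 was lower (1.93% were), whereas Cd63 was neither. The share of all genes called higher grew with the purine content of the probe, from 8.24% of genes with probes of at most 40% purines and 12.1% between 40% and 50%, to 23.1% between 50% and 60% and 46.9% above 60%. Lgals3, at 36.7% purines, and Trem2, at 41.7%, lay in the classes with the smaller shares. Tyrobp at 56.7%, Spp1 at 55.0% and Lyz2 at 60% lay in the third class, and the Cd68 member probe at 65.0% in the highest. The brighter Cd68 probe had 31.7%.

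In anti-VLA-4 against HFD-IgG, 9 members were well above background on at least 1 array, Gpnmb among them with no fold and entered at 0. Of these, 1 was at least 2-fold lower, Trem2 (16.5% of all 22587 genes compared were), and 0 were higher (1.9% of all genes were). The median over the 9 was -0.35, and Cd9 at -0.44 and Cd63 at -0.35 lay near it. Calls in either direction made up 18.4% of all genes. Among genes above the 75th percentile, 0 of the same 4 members were called, against 0.806% of such genes higher and 1.3% lower. The share of genes called lower also grew with purines, with 3.78% in the lowest class and 46.7% in the highest, and was 7.08% in the class of the Trem2 probe. A single call among 9 is near the share of all genes. The Trem2 call was also lost with normexp, as given above, and Gpnmb reached at least 1.05 on the log2 scale with quantile scaling. In anti-VLA-4 against SD, 6 of 9 members were at least 2-fold higher (7.98% of all 20333 genes compared were) and 1, Cd9, was lower (3.39% were), with a median of 2.39, and calls in either direction made up 11.4% of all genes. Trem2, Cd68 and Gpnmb entered there through the anti-VLA-4 array alone, so higher was again the only call they could have, and 2 of the 6 calls are theirs. Among genes above the 75th percentile, Lgals3 and Tyrobp were higher (3.34% of such genes were) and Cd9 was lower (1.55% were).  The 2 comparisons with SD share the SD array, as both comparisons with HFD-IgG share the HFD-IgG array.

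**Figure D3:**
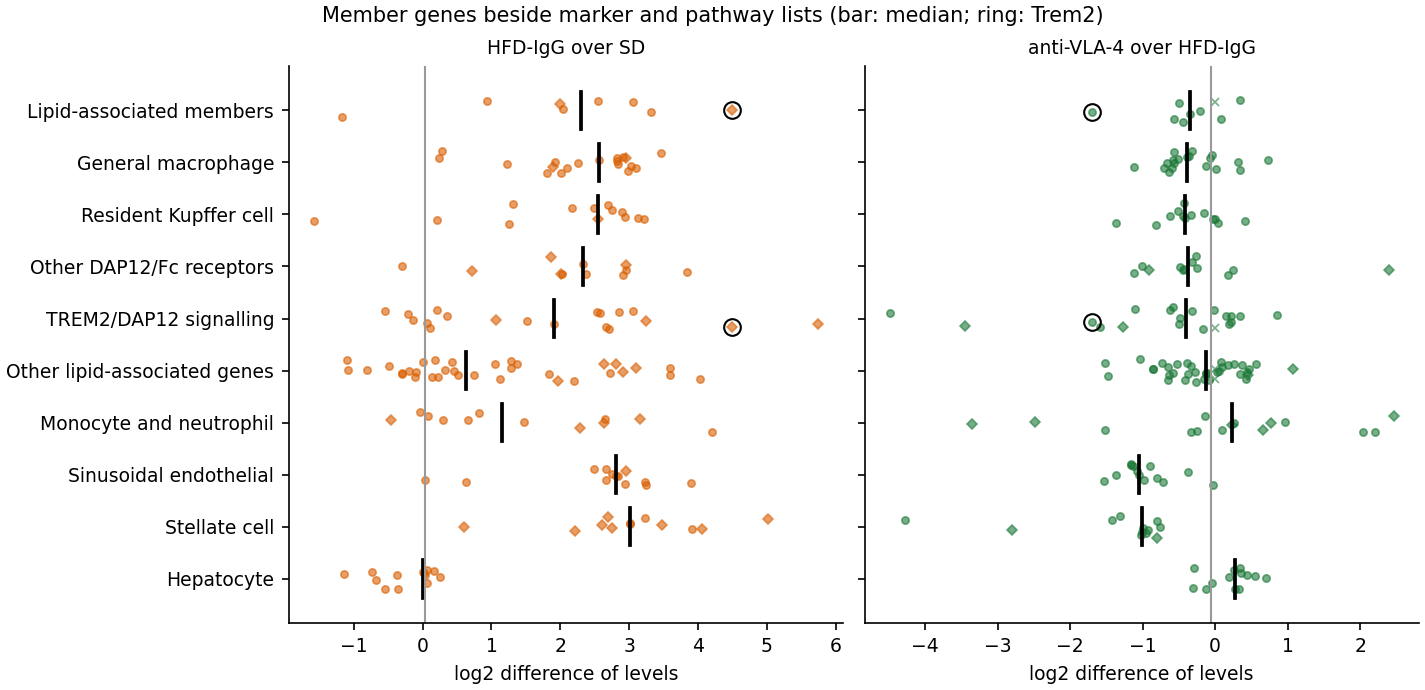
Log2 differences of the genes of each list for HFD-IgG over SD and anti-VLA-4 over HFD-IgG, with circles for measured genes, diamonds for bounds, crosses at 0 for genes with no fold, a bar for the median of each list and a ring around Trem2. The grey line is the median of all genes. In HFD-IgG over SD the medians of the general macrophage, Kupffer, endothelial and stellate lists lie between 2.55 and 3.01, near the members' 2.30, whereas the hepatocyte list lies at 0.01.

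Beyond the 10 members, 34 other genes of the lipid-associated macrophage programme were compared between HFD-IgG and SD. Of these, 16 were at least 2-fold higher in HFD-IgG and 2 lower, with a median log2 difference of 0.63. Over all genes 20.4% were higher and 2.41% lower. Ccr2, Cx3cr1, Itgax, Ms4a7 and Msr1, among the 16, are bounds that entered through the HFD-IgG array alone. Clec7a, the beta-glucan receptor Dectin-1, was 16.3-fold higher, the fatty-acid carrier Fabp4 12.1-fold and the filament protein Vim 12.1-fold. The 2 lower genes were Grn, the lysosomal protein progranulin, at -1.10, and Nceh1, a hydrolase of cholesterol esters, at -1.09. In anti-VLA-4 against HFD-IgG, 1 of 38 of these genes was higher and 3 were lower: Ccr2 at -1.52, Fabp4 at -1.47 and Nceh1 at -1.04. Over all genes 1.9% were higher and 16.5% lower, and with normexp 0 of these genes were higher and 0 lower. The 1 higher gene, Dcstamp, is a bound that entered through the anti-VLA-4 array alone. Regulators of the programme were mixed, with 7 of 18 higher by 2-fold or more, and 0 lower, in HFD-IgG than in SD. Over all genes 20.4% were higher, and Bhlhe41 and Tfec, among the 7, are bounds that entered through the HFD-IgG array alone. The myeloid factor Irf8 was at 2.52, the stress factor Atf3 at 2.28 and the macrophage factor Maf at 1.89. Nr1h2, the oxysterol receptor LXR beta, was at -0.51, and Tfe3, which controls lysosomal genes, at -0.43.

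Markers of several cell types other than hepatocytes differed between the arrays along with the members. General macrophage genes had 17 of 19 higher by 2-fold or more, and 0 lower, in HFD-IgG than in SD, with summed relative signals of 43.4 in anti-VLA-4, 51.3 in HFD-IgG and 14.9 in SD, and Cybb and Fcgr1 not well above background in SD. Markers of Kupffer cells, the resident macrophages of the liver, had 11 of 13 higher and 1 lower, with sums of 45.5, 58.4 and 22.3 on the anti-VLA-4, HFD-IgG and SD arrays. Clec4f, which defines them, was 6.47-fold higher in HFD-IgG than in SD, and Cd163 was not well above background on any array. Endothelial markers (11 of 13 higher, 0 lower) summed to 36.7 in anti-VLA-4, 62.4 in HFD-IgG and 16.0 in SD, and stellate cell markers (11 of 12 higher, 0 lower) to 16.3, 32.9 and 3.46 in the same order. Hepatocyte markers (0 of 13 higher, 1 lower, median log2 difference 0.01) summed to 4593, 4531 and 4807. With normexp 6 of the 13 were lower in HFD-IgG than in SD, with a median of -0.78, where 3.93% of all genes were lower. Over all genes 20.4% were higher and 2.41% lower in HFD-IgG than in SD. Only 4 of the 12 stellate markers were well above background in SD, so higher was the only call open to the others. The same holds for Timd4 among the Kupffer markers, Tek among the endothelial ones, and Cybb and Fcgr1. The part of these cell types in the members' differences was not tested. In bulk RNA, fewer cells of a type and less RNA per cell cannot be told apart.

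Trem2 was also set beside the macrophage lists in anti-VLA-4 against HFD-IgG, without a test. Its -1.70 was below the lowest of the general macrophage genes measured on both arrays, Fcgr1 at -1.12, and below the lowest of the Kupffer markers, Cd207 at -1.37. The medians of these lists were -0.40 and -0.41, near the members' -0.35, and those of the endothelial and stellate lists were -1.06 and -1.002, or -0.61 and -0.52 with normexp. Among stellate markers the lowest was Pdgfrb at -4.28, and Des was at -2.80 or lower. The other stellate markers measured on both arrays lay between -1.42 and -0.77. The lowest endothelial marker was Gpr182 at -1.53. Thus -1.70 lay within the range of the stellate list through single markers, and below all endothelial markers. In the list of TREM2 and DAP12 signalling genes, Pik3cd at -4.49 and Vav3, at -3.45 or lower, were below Trem2. The other genes of that list measured on both arrays were not.

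**Figure D4:**
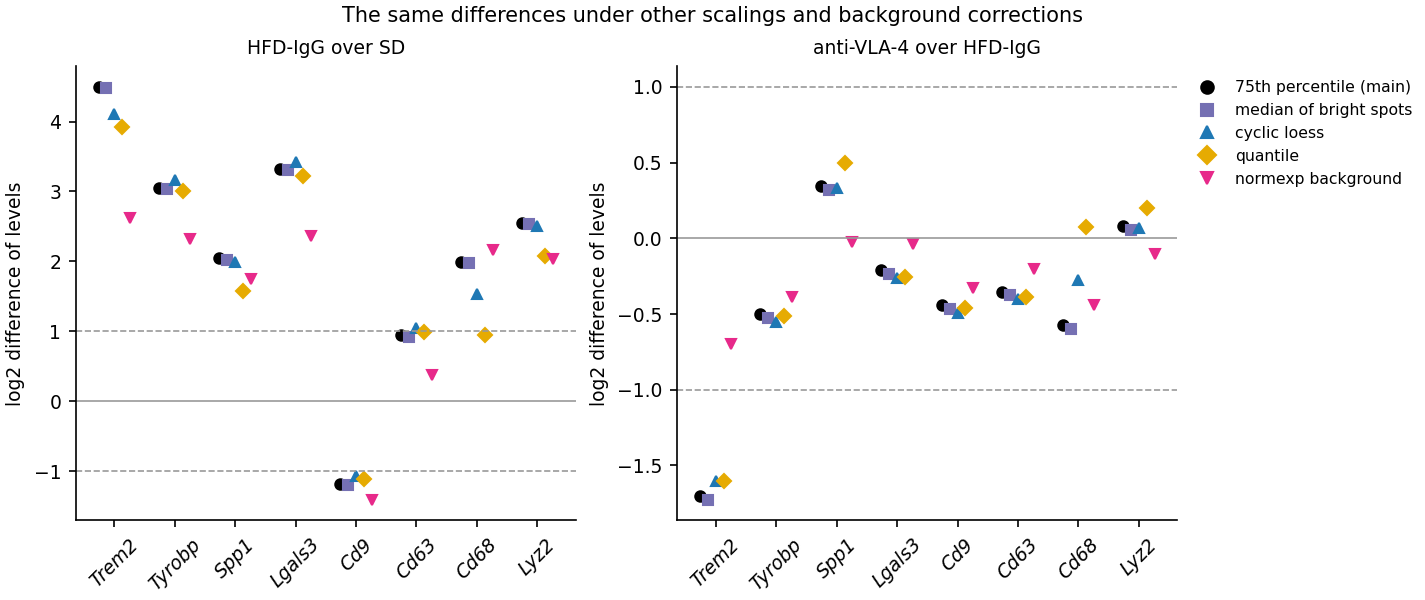
Log2 differences of 8 members for HFD-IgG over SD and anti-VLA-4 over HFD-IgG under 4 scalings and the normexp background correction, with 1 symbol per setting and dashed lines at 2-fold. Values of Trem2 and Cd68 for HFD-IgG over SD are lower bounds. Trem2 in anti-VLA-4 over HFD-IgG lies at -1.70 with the 75th percentile scaling and at -0.69 with normexp, whereas Lgals3 in HFD-IgG over SD lies at 3.32 and 2.36.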

How the data were processed

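RNA of 3 hepatocyte preparations was hybridised to 3 one-colour (Cy3) Agilent arrays whose design follows mm9, 1 array per group. The deposited scanner files hold spot intensity, which the authors obtained with the scanner software. The submitters' processing notes name Agilent Feature Extraction 11.0.1.1. Per the file headers, it took off the background, applied detrending and set the other scores used, such as the mark for well above background. The deposited value table holds a ratio for 23206 spots, equal to processed signal over the array's 75th percentile (largest relative deviation 2e-08), and it holds 6 of the 10 members.

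From these files, log2 of the processed signal over each array's 75th percentile of non-control spots was computed. Outlier spots were dropped, and repeated spots were averaged. Symbols came from RefSeq by accession (68.6% of spots) or else from the array, and a gene took its probe with the highest mean. Genes well above background on at least 1 of 2 arrays were compared and called at 2-fold. Groups follow the labels, and no test is possible with 1 array per group. All members were named, with genes of the TREM2 signalling and osteopontin receptor lists and up to 3 highest and 3 lowest of each other list. Genes with a pattern like that of Trem2 were not sought, as it was not well above background on all 3 arrays. The members and lists were chosen with earlier results of these data known. Probes spotted repeatedly and well above background had a median SD of 0.080 to 0.11 (log2) within an array, and the number of arrays limits the precision. Calls were tried on simulated data made from the SD array, with the same spots well above background on all 3 simulated arrays. Lower bounds and differences between preparations were therefore not part of that check. Promoters are RefSeq's on GRCm38.p6, and mm9 positions are the array's. Python 3.11.15, numpy 2.4.6, pandas 2.3.3, R 4.3.3 and limma 3.58.1 (quantile, cyclic loess, normexp with offset 50) were used.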

Additional observations from a re-analysis of the deposited data

Results flagged for a closer look

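A brighter probe of Cd68, listed on the arrays under an Ensembl transcript and so not used for the members in the main comparisons, carried signal well above background on all 3 arrays. Its relative signal was 1.53 in anti-VLA-4, 1.76 in HFD-IgG and 0.325 in SD, where the member probe was not well above background in SD. It gave Cd68 5.42-fold higher in HFD-IgG than in SD.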

How the results depend on the processing

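With the settings of the report, 7 members were called in HFD-IgG over SD and 7 in anti-VLA-4 over SD, with 1 in anti-VLA-4 over HFD-IgG. In anti-VLA-4 over HFD-IgG the number was 2 with quantile scaling (1 higher, 1 lower) and 0 with the normexp background correction. It was also 0 with the deposited value table and with genes above the 75th percentile on at least 1 array, both of which leave Trem2 out. With that last filter 3 members were called in HFD-IgG over SD and 3 in anti-VLA-4 over SD, and with probes of at most 50% purines 2 and 2. These filters leave 4 and 3 members. The direction turned for Cd68 in anti-VLA-4 over HFD-IgG with quantile scaling (0.078) and for Spp1 with normexp (-0.022). Of 151 values of single members under other settings, 126 stayed within the scanner's error, 23 moved beyond it and 2 turned by more than it. Lyz2 in anti-VLA-4 over HFD-IgG changed sign within that error, at -0.11 with normexp against 0.08. The probe of Cd68 chosen after seeing the data left the 3 counts at 7, 1 and 7.

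Over all genes, higher calls made up 89.4% of calls in HFD-IgG over SD, 10.3% in anti-VLA-4 over HFD-IgG, then 70.2% in anti-VLA-4 over SD. Quantile scaling gave 47.5%, 54.4% and 57.3% in that order of comparisons. Normexp gave 91.1%, 31.2% and 93.5%, and its medians over all genes were 0.46, -0.14 and 0.27. With normexp 8855 genes were higher in HFD-IgG than in SD (4498 in the report's setting) and 6107 in anti-VLA-4 than in SD (1623), and 150 were lower in anti-VLA-4 than in HFD-IgG (3721). With quantile scaling 2431 were higher and 2687 lower in HFD-IgG than in SD (4498 and 531). Quantile scaling called 2462 genes higher and 2067 lower in anti-VLA-4 than in HFD-IgG (429 and 3721). The cause was not tested. No paired analysis was possible because each group has 1 array, and no replicate could be left out.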

Other observations

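Markers of monocytes and neutrophils were mixed in anti-VLA-4 against HFD-IgG. S100a9 and S100a8, the calgranulin genes of neutrophils and monocytes, had the highest log2 differences measured on both arrays, 2.21 and 2.03, and Ccr2 had the lowest, -1.52. Of the 15 monocyte and neutrophil markers compared, 3 were at least 2-fold higher and 3 lower, with a median of 0.23. Over all genes 1.9% were higher and 16.5% lower. Chil3, among the 3 higher, entered through the anti-VLA-4 array alone, and Cxcr2 and Ngp, among the 3 lower, through the HFD-IgG array alone. With normexp 1 of the 15 was higher and 0 lower.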
